A study of Mus musculus with 4 samples.

Results

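The 10 genes H2-Aa, H2-Ab1, H2-Eb1, H2-DMa, H2-DMb1, H2-DMb2, H2-Oa, H2-Ob, Cd74 and Ciita, which build and load MHC class II, were followed through the leukocytes of the inflamed mouse colon. They were taken by symbol from the 32285 genes of the count tables, and all 10 were measured in each sample. The mice drank dextran sulfate sodium (DSS), a polymer that damages the lining of the colon and sets off colitis, and were returned to plain water before tissue was taken. For each sample the colons of several mice of 1 group were mixed, CD45+ cells (leukocytes) were pulled out with magnetic beads, and single-cell libraries were made by the 10x Genomics droplet method. All 4 samples came from DSS-treated mice, labelled as 10 weeks old (the study's text gives a younger age), and none from untreated mice. The study used AhR-deficient mice (AhR-/-, lacking the aryl hydrocarbon receptor) and AhR+/+ littermates, but the labels of the samples do not give a genotype. Groups were taken from those labels alone, and names given to the deposited files were not used to assign one, so the samples are numbered 1 to 4, each is reported on its own, and no genotypes were compared.

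MHC class II molecules present peptides from engulfed proteins to CD4 T cells. H2-Aa and H2-Ab1 encode the alpha and beta chains of I-A, and H2-Eb1 encodes the beta chain of I-E. The alpha chain of I-E was not analysed here, so the H2-Eb1 level, alone or in a sum, does not show that I-E was made. Such alpha and beta chains, the classical chains, assemble in the endoplasmic reticulum with the invariant chain, encoded by Cd74. The invariant chain fills the groove until it is cut away in endosomes. The peptide editor H2-M (H2-DMa with H2-DMb1 or H2-DMb2) then exchanges the remaining fragment for peptide, and H2-O (H2-Oa with H2-Ob) binds H2-M and restrains it. Ciita, the class II transactivator, does not bind DNA itself but docks on factors at the X and Y boxes of the promoters. B cells, dendritic cells (DCs) and macrophages are the professional presenting cells, and in the colon macrophages acquire class II as they mature from monocytes.

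Of the members, 8 are neighbours in the MHC region. On GRCm38, H2-Oa (chr17:34092340-34095234), H2-DMa (chr17:34119541-34139101), H2-DMb2 (chr17:34143307-34151555), H2-DMb1 (chr17:34153072-34160230), H2-Ob (chr17:34238903-34254414), H2-Ab1 (chr17:34257689-34269419), H2-Aa (chr17:34282744-34287823) and H2-Eb1 (chr17:34305867-34316674) follow each other along chromosome 17. H2-Aa alone among these 8 is on the minus strand. Ciita is at chr16:10480059-10528418 on the plus strand, and Cd74 also lies outside the MHC. RefSeq promoter sequences (GRCm38.p6, 250 bases before to 50 after each start) were found for 7 members, and the other members are H2-Ab1, Cd74 and Ciita. The stretches shown lie before a RefSeq start, outside annotated UTRs, and hold the core of the X box and the Y box. Members with this pair of cores differed widely between cell classes, as given later, and any link to the sequence was not tested. The stretch of H2-DMb2 lies inside the gene span given above, since its RefSeq start is downstream of the first annotated base of the gene. Capitals mark AAC, the X core searched for, and TGATTGG, the Y core searched for.

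H2-Aa (chr17:34287867-34287914, minus strand): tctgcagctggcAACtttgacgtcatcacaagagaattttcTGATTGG
H2-Eb1 (chr17:34305766-34305812, plus strand): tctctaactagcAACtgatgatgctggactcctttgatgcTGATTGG
H2-DMb2 (chr17:34145116-34145163, plus strand): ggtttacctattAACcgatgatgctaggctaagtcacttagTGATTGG
H2-Ob (chr17:34238808-34238852, plus strand): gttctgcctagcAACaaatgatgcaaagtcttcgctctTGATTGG

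TGATTGG began 50, 61, 92 and 59 bases before the start in H2-Aa, H2-Eb1, H2-DMb2 and H2-Ob, and 26, 25, 26 and 23 bases lay between the capitals. H2-DMb1 and H2-Oa held the same pair, so 6 of the 7 members with an entry had it. Neither of the starts listed for H2-DMa did. AAC followed after 23 to 26 bases by TGATTGG, on either strand, was present in 0.460% of all 32851 promoter entries of this length, and TGATTGG alone in 7.82%. The spacing was chosen after the members' promoters had been read, so the share describes how rare the pair is and tests nothing.

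Cells were placed in classes by the UMIs (unique molecular identifiers, each marking 1 captured transcript) of fixed marker genes, none of them a member. Of 43432 cells kept, 27134 fell in 1 class and 5687 passed no list. The other 10611 carried markers of several lineages, of both DCs and macrophages, or of more than 1 ILC class, and were left out. Levels are in CPM, the UMIs of a gene summed over the cells of a class in a sample, per 1000000 UMIs of those cells, and are not scaled by transcript length. Cells are not replicates, and each class has 1 value a sample. Intervals are 95% and exact, and cover counting error only. A class was read in samples with at least 50 of its cells, and classes with 20 to 49 cells (the limit lowered after class sizes were seen) are described with that said. Checks of the class names used separate genes, each compared with the median of the other classes in a sample. Over 2-fold above that median in every sample read were 4 of 4 genes for B cells, 4 of 4 for monocytes and 5 of 5 for macrophages. For type 1, type 2 and plasmacytoid DCs and ILC3 it was 3 of 4 each. The check does not set a class against its nearest class. Csf1r, a check gene of macrophages, was at 431 to 638 CPM in macrophages and 280 to 413 CPM in monocytes. Flt3, a gate gene of type 2 conventional DCs, was at 182 to 281 CPM there and 183 to 224 CPM in type 1 conventional DCs. It was at 159 to 283 CPM in plasmacytoid DCs and 326 to 644 CPM in mature DCs, so it does not separate type 2 from other DCs. Sample totals were 72509408 to 135516016 UMIs over 8493 to 13730 cells. Library pairs shared 23 to 49 cell barcodes, at most 0.423% of the smaller library.

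The classical chains were highest in conventional DCs and macrophages, intermediate in B cells, low in monocytes, and lower still in T cells and neutrophils. In type 2 conventional DCs (Cd209a, Flt3, Zbtb46, Clec4a4, Kmo), H2-Aa, H2-Ab1 and H2-Eb1 summed to 12717, 15088, 11347 and 11990 CPM in samples 1 to 4. In macrophages (C1qa, C1qb, C1qc, Mrc1, Cd163, Mertk) the sums were 14542, 12912, 7970 and 6411 CPM. In B cells they were 7560, 7316, 5540 and 5340 CPM. The DC values stayed within a narrow band, the macrophage values were high in samples 1 and 2 and low in samples 3 and 4, and the B cell range lay below the DC range but overlapped that of macrophages.

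Type 1 conventional DCs, which specialize in cross-presentation, gave 19815, 18257, 15110 and 13987 CPM, the top median of the 18 classes, but from 29 to 55 cells a sample. Their ratio to type 2 conventional DCs was 1.17 to 1.56 and above 1 in 4 of 4 samples. The order by median then ran through type 2 conventional DCs, macrophages, cells with both monocyte and macrophage markers, mature DCs and B cells, and each neighbour's range overlapped the next. The next step, from B cells to plasmacytoid DCs (2456 and 3061 CPM in samples 1 and 2, with 38 and 20 cells), showed no overlap.

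**Figure D1:**
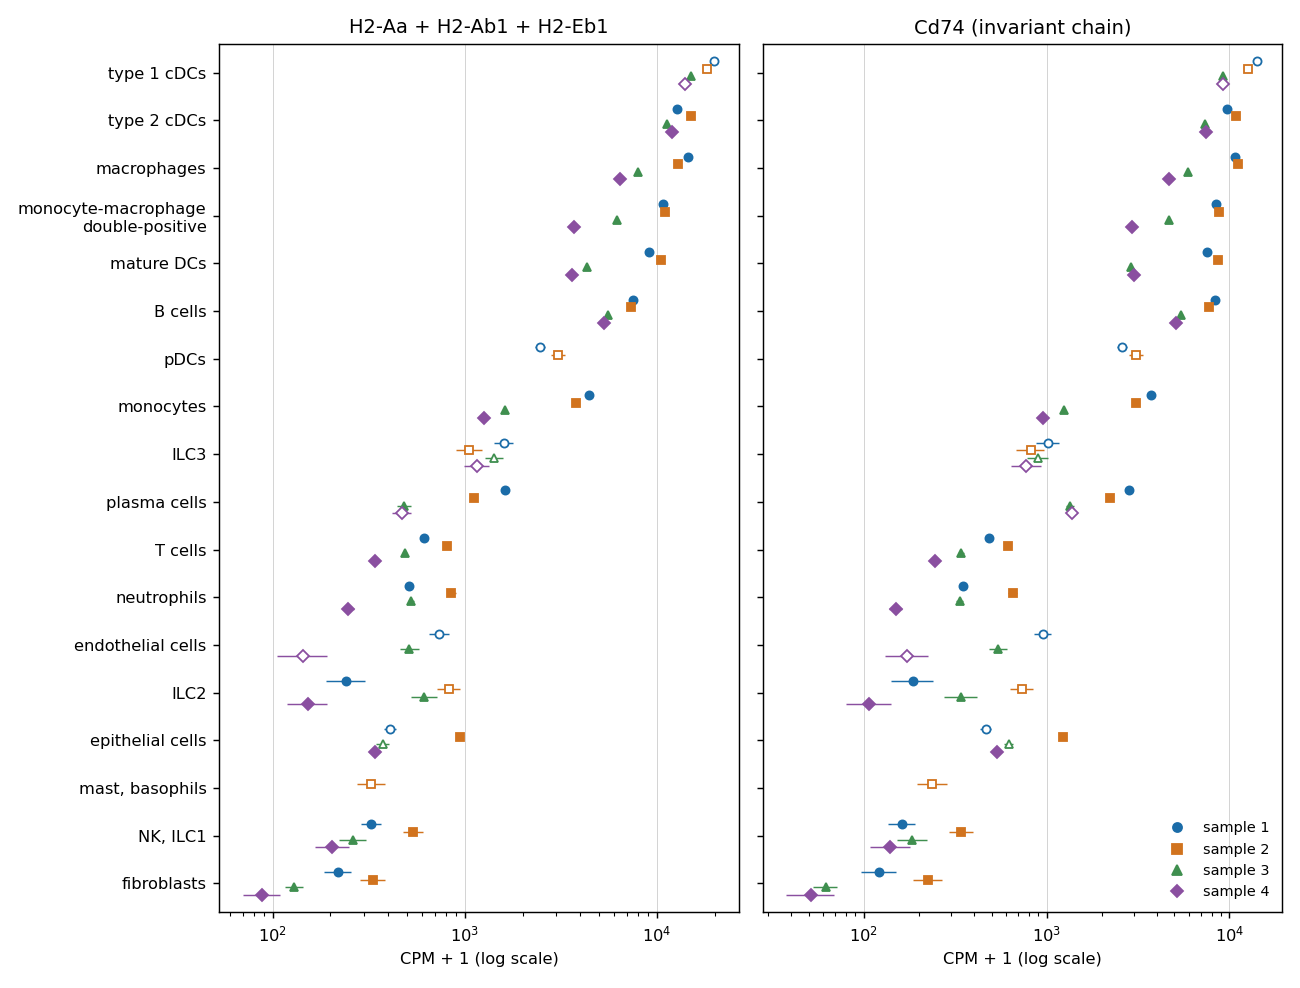
Summed CPM of the 3 classical chains (left) and CPM of Cd74 (right), each plus 1 on a log axis, in every class and sample, with classes ordered by the median of the classical chains. Bars are 95% counting intervals, and open symbols mark fewer than 50 cells. For the classical chains, conventional and mature DCs, macrophages and B cells lie between 3636 and 19815 CPM, and T cells and neutrophils at 852 CPM or less.

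Macrophages carried several times more classical chain transcript than monocytes in every sample. Monocytes (Ly6c2, Ccr2, Vcan, Chil3, F13a1, Plac8) had 1747, 1388, 649 and 489.9 CPM of H2-Aa in samples 1 to 4, against 5509, 4720, 3207 and 2591 CPM in macrophages, and the ranges did not overlap. The macrophage to monocyte ratio of the summed chains was 3.26 (3.23-3.30), 3.38 (3.32-3.45), 4.90 (4.83-4.98) and 5.10 (4.98-5.22). Cells passing both lists gave an intermediate sum, 2.41 to 3.82 times that of monocytes. Macrophages had 1.17 to 1.73 times the sum of these cells, and both ratios were above 1 in 4 of 4 samples. Doublets of a monocyte and a macrophage were not removed and would also give an intermediate sum. Their part in these cells was not tested. Across the members, 5 of 10 (H2-Aa, H2-Ab1, H2-Eb1, H2-DMb1 and Cd74) were over 2-fold higher in macrophages in every sample and none was over 2-fold lower, where 3.92% of 8779 genes were higher and 1.99% lower by the same rule. The median log2 ratio was 1.17 over the members and 0.11 over all genes.

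Of the H2-M chains, H2-DMa and H2-DMb1 were higher in macrophages by smaller ratios than the classical chains, whereas H2-DMb2 and the H2-O chains were not higher in most samples. H2-DMa was 1.58 to 2.44 times and H2-DMb1 2.03 to 3.28 times as high in macrophages as in monocytes. Ciita was 1.29 to 3.56 times as high. H2-DMb2, H2-Oa and H2-Ob had ratios between 0.556 and 1.67, and each was above 1 in only 1 of 4 samples. Macrophages thus held 5509 CPM of H2-Aa beside 8.04 CPM of H2-Oa and 10.6 CPM of H2-Ob in sample 1.

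Type 2 conventional DCs and macrophages did not keep 1 order for the classical chains. The DC to macrophage ratio was 0.875 (0.863-0.886) in sample 1 and 1.17, 1.42 and 1.87 in samples 2 to 4. H2-DMb2, H2-Oa, H2-Ob and Ciita were over 2-fold higher in the DCs in every sample, 4 of 10 members against 4.82% of 9130 genes, and none was over 2-fold lower, against 6.1% of genes. Cells passing both the type 2 conventional DC list and the macrophage list were in neither class. Assigning each cell to its highest-scoring class turned the median of the classical chain ratio to 0.884.

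B cells and macrophages differed most in H2-O and in 1 of the H2-M beta chains. H2-Ob, the beta chain of H2-O, had 305, 329, 227 and 261 CPM in B cells and 10.6, 19.3, 4.18 and 9.39 CPM in macrophages. H2-Oa, its alpha chain, had 164, 157, 134 and 92.8 CPM in B cells and 8.04, 12.6, 4.02 and 4.25 CPM in macrophages. Neither pair of ranges overlapped. The summed H2-O level in macrophages was 0.0227 to 0.0656 of that in B cells, while the summed H2-M level was 0.501 to 0.863 of it and the B cell level of the classical chains was 0.520 to 0.833 of that in macrophages. Ms4a1, which encodes the B cell surface protein CD20, was at 0.774 to 10.4 CPM in macrophages and 330 to 374 CPM in B cells. Cd79a, another gate gene of B cells, was at 1.70 to 39.0 CPM in macrophages and 644 to 1111 CPM in B cells. The macrophage range of Cd79a overlapped that of summed H2-O. Summed H2-O was at 8.20 to 31.9 CPM in macrophages and 13.1 to 33.9 CPM in T cells, and these ranges overlapped. The part of free or carried-over B cell RNA in the macrophage H2-O level was not tested. Keeping the cells with markers of several lineages raised the median of the H2-O ratio from 0.0391 to 0.0854.

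H2-DMb1 and H2-DMb2 are neighbouring genes for alternative beta chains of H2-M, and their balance differed between classes. H2-DMb1 had 257, 241, 185 and 202 CPM in B cells and 377, 306, 179 and 190.5 CPM in macrophages, and these ranges overlapped. H2-DMb2 had 349, 317, 232 and 265 CPM in B cells but 19.5, 16.2, 3.87 and 8.05 CPM in macrophages, with no overlap. H2-DMb2 made up 55.5 to 57.6% of the UMIs of both genes in B cells, 41.3 to 57.6% in mature DCs, 22.9 to 34.9% in type 2 conventional DCs, 9.57 to 21.5% in type 1 conventional DCs, 8.45 to 12% in monocytes and 2.12 to 5.04% in macrophages. In 4 of 4 samples the share in B cells exceeded that in type 2 conventional DCs, which exceeded that in monocytes, which exceeded that in macrophages. H2-DMb2 was at 5.56 to 20.6 CPM in monocytes, and its ranges there and in macrophages overlapped those in T cells (3.62 to 16.5 CPM) and neutrophils (4.27 to 23.3 CPM). The shares in T cells and neutrophils were 28.1 to 43.4% and 28.6 to 58.4%. The part of free RNA in these low H2-DMb2 levels was not tested. The first listed transcripts of the genes (1404 and 1424 bases) were 92.8% identical over 1231 aligned bases, and 15.9% of the 90-base windows of H2-DMb1 occurred unchanged in H2-DMb2. How reads that fit both were split is not given in the sources used here, so the shares carry that uncertainty, and its size in each class was not tested.

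**Figure D2:**
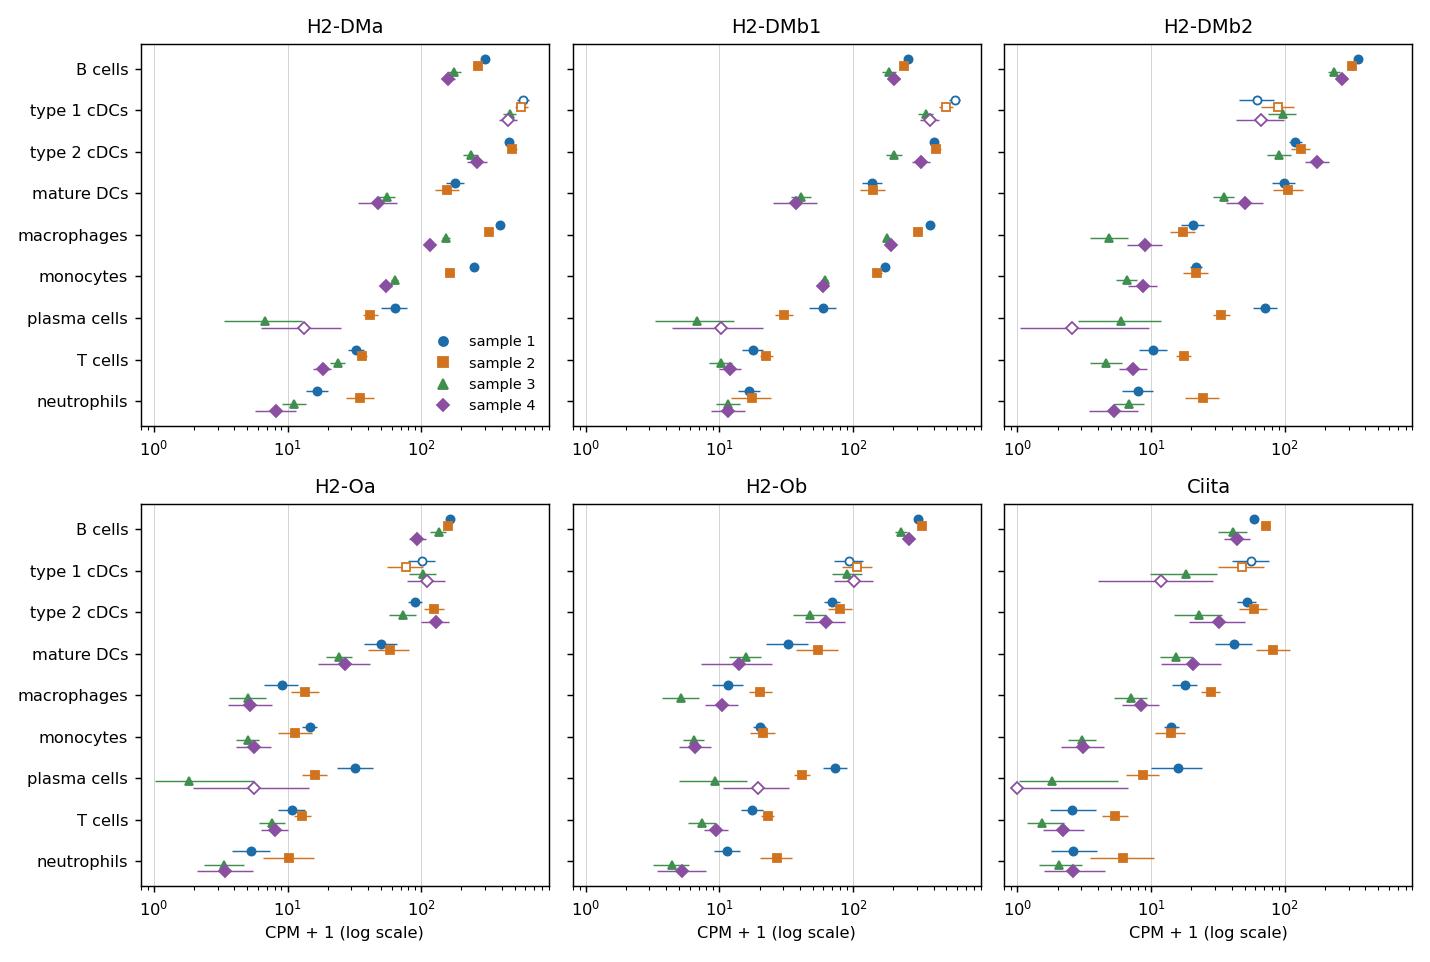
CPM plus 1 on a log axis of the H2-M chains, the H2-O chains and Ciita in 9 classes and 4 samples, with 95% counting intervals and open symbols for fewer than 50 cells. H2-DMb1 overlaps between B cells and macrophages, whereas H2-DMb2, H2-Oa and H2-Ob are at most 19.5 CPM in macrophages and at least 92.8 CPM in B cells.

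Against macrophages, 4 of 10 members (H2-DMb2, H2-Oa, H2-Ob and Ciita) were over 2-fold higher in B cells in every sample and none was over 2-fold lower, where 20.3% of 9437 genes were higher and 15.9% lower. The median log2 ratio of B cells to macrophages was -0.09 over the members and 0.30 over all genes. B cells also differed from type 2 conventional DCs, with which they share H2-O. The DC level of H2-Ob was 0.206 to 0.240 of the B cell level, the sole member past 2-fold in every sample. That is 1 of 10 members lower and 0 higher, against 12% of 9364 genes lower and 11.3% higher. The count thus does not set the members apart from all genes. H2-Oa was closer, at 0.536 to 1.37 of the B cell level, so the H2-Oa and H2-Ob transcripts were not in 1 proportion across the presenting classes.

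Ciita was a low transcript everywhere and its order was not that of the chains. It had 58.2, 71.5, 39.7 and 43.2 CPM in B cells, 50.7, 57.3, 21.9 and 31.0 CPM in type 2 conventional DCs, and 16.9, 26.8, 6.04 and 7.38 CPM in macrophages. B cells were above macrophages in every sample by 2.67 to 6.57 times, although their classical chains were lower in every sample, at 0.520 to 0.833 of the macrophage level. Per 1000 classical chain UMIs there were 7.16 to 9.77 Ciita UMIs in B cells, 1.93 to 3.99 in type 2 conventional DCs and 0.757 to 2.08 in macrophages. T cells, which in mice do not produce class II, held 1.09 to 5.45 Ciita UMIs per 1000, from 5 to 57 Ciita UMIs a sample. These ratios compare classes for fixed genes, since UMIs are not scaled by length and genes differ in capture.

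Plasma cells, which secrete antibody at the end of B cell differentiation, held less of every member than B cells. Ciita was at 14.8, 7.64 and 0.828 CPM in samples 1 to 3, from 19, 39 and 1 UMIs, against 58.2, 71.5 and 39.7 CPM in B cells. In sample 4, 33 plasma cells gave 0 Ciita UMIs, which allows up to 4.63 CPM (3 UMIs). The plasma to B cell ratio of Ciita was 0.254 (0.152-0.399), 0.107 (0.0756-0.147) and 0.0209 (0.000520-0.121), a median that moved from 0.107 to 0.0639 without sample 1 and to 0.181 without sample 3. The classical chains stood at 0.215, 0.153 and 0.0871 of the B cell level. All 10 members were over 2-fold lower in the 3 samples read, where 34.7% of 8993 genes were lower and 5.2% higher, and the median log2 ratio was -3.18 over the members and -0.95 over all genes. Immunoglobulin, mitochondrial and ribosomal genes fill much of a plasma cell's UMIs, and with them left out of the totals the median Ciita ratio was 0.197. Set beside T cells, plasma cells had 9.45 (4.18-22.7), 1.74 (1.13-2.66) and 1.55 (0.0329-13.9) times the Ciita level and 0.991 to 2.64 times the classical chain level. The classical chain level of plasma cells was below that of T cells in 1 of the 3 samples. Over all alternatives tried, the median Ciita ratio of plasma to B cells ranged from 0.0412 to 0.237.

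Cd74 differed least from B cells. It had 2806, 2230, 1342 and 1376 CPM in plasma cells and 8365, 7729, 5456 and 5091 CPM in B cells, so the plasma cell level was 0.246 to 0.335 of the B cell level in the 3 samples read. Plasma cells had 1.73 (1.63-1.82), 1.99 (1.93-2.05), 2.78 (2.53-3.06) and 2.93 (2.57-3.35) Cd74 UMIs per classical chain UMI in samples 1 to 4, above every other class in each sample where both were read. B cells had 0.953 to 1.11, macrophages 0.731 to 0.862 and type 2 conventional DCs 0.620 to 0.764. Ms4a1 was at 4.14 to 47.5 CPM in plasma cells, and the part of B cell RNA in their class II level was not tested.

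**Figure D3:**
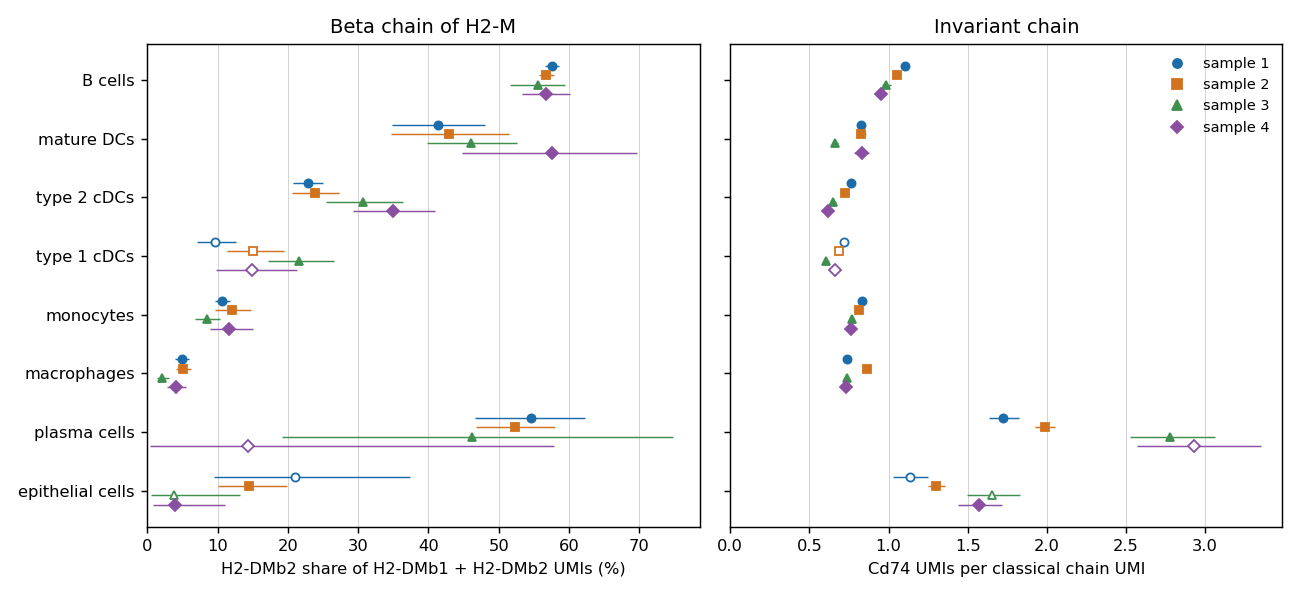
Left, H2-DMb2 as a percent of the UMIs of H2-DMb1 and H2-DMb2. Right, Cd74 UMIs per UMI of the classical chains. Points are samples with 95% counting intervals, and open symbols mark fewer than 50 cells. The H2-DMb2 share is at least 55.5% in B cells and at most 5.04% in macrophages, and plasma cells have at least 1.73 Cd74 UMIs per classical chain UMI in all 4 samples.

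Mature DCs, the Ccr7-positive state that leaves tissue for lymph nodes, had less of every member than type 2 conventional DCs, except for Ciita in sample 2. Their classical chains were at 9127, 10515, 4351 and 3636 CPM, 0.718, 0.697, 0.383 and 0.303 of the type 2 DC level. H2-DMa and H2-DMb1 had the lowest medians, with ratios of 0.180 to 0.395 and 0.113 to 0.343. Both were over 2-fold lower in every sample, 2 of 10 members against 3.86% of 8986 genes, and none was over 2-fold higher, against 4.45% of genes. Ciita gave ratios of 0.803 (0.549-1.15), 1.41 (0.953-2.08), 0.660 (0.391-1.15) and 0.630 (0.293-1.34), and each interval held 1. Thinning each cell to 1000 UMIs turned the median of this ratio from 0.732 to 1.11.

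ILC3, innate lymphoid cells that can present antigen, were read in 29 to 41 cells a sample. Their classical chains were at 1594, 1056, 1423 and 1154 CPM, against 615, 805, 487 and 340.5 CPM in T cells, and the ranges did not overlap. The ILC3 to T cell ratio was 2.59 (2.29-2.92), 1.31 (1.12-1.53), 2.92 (2.62-3.25) and 3.39 (2.89-3.96), lowest in sample 2, and each interval lay above 1. ILC3 had 0, 0, 0 and 1 Ciita UMIs, and 3 UMIs were worth 11.7 to 20.4 CPM, so a level such as that in T cells (0.533 to 4.39 CPM) was not detectable at this depth. In ILC3, 58.3 to 67.5% of cells thinned to 1000 UMIs had no classical chain UMI, and 0 to 17.2% had 5 or more, against 1.33 to 2.52% of T cells. Csf1r, a receptor of monocytes and macrophages, was at 6.29 to 85.8 CPM in ILC3 and 9.71 to 27.9 CPM in T cells, and its part in the ILC3 level was not tested. A looser gate, with the required marker level at 10% instead of 25% of clear positives, gave a median ratio of 5.43 in place of 2.76.

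Neutrophils, NK cells and ILC1, and fibroblasts, which were not expected to make class II, held a low level throughout. Neutrophils had 512, 852, 525 and 247 CPM of the classical chains, NK cells and ILC1 325, 537, 261 and 204 CPM, and fibroblasts 217, 330.3, 129 and 87.3 CPM. All 3 were highest in sample 2 and lowest in sample 4. In these classes 56.2 to 94.3% of thinned cells had no classical chain UMI, against 0.243 to 2.40% of B cells. Monocytes were 3.10 to 8.71 times above neutrophils in the same sample. Epithelial cells (32 to 116 cells a sample, 2 samples under 50) were at 408, 946, 374 and 338 CPM, 1.88 to 3.88 times the fibroblast level. Their range overlapped those of neutrophils and of T cells (340.5 to 805 CPM). They were below both classes in samples 1 and 3 and above both in sample 2. Epithelial cells had 1.13 to 1.65 Cd74 UMIs per classical chain UMI. In fibroblasts that ratio was 0.473 to 0.675.

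Cells within a class were not alike in all classes. After thinning to 1000 UMIs a cell, B cells had a median of 8, 7, 5 and 6 classical chain UMIs with 10th to 90th percentiles of 4 to 12, 3 to 12, 2 to 10 and 2 to 10. Macrophages had medians of 13.5, 13, 7 and 5. The share of macrophages with none was 0.191%, 5.61%, 8.20% and 21.6% in samples 1 to 4. Monocytes combined a median of 2, 1, 0 and 0 with a 90th percentile of 13, 12, 5 and 4, and 33.0%, 38.1%, 65.1% and 71.1% of them had none.

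**Figure D4:**
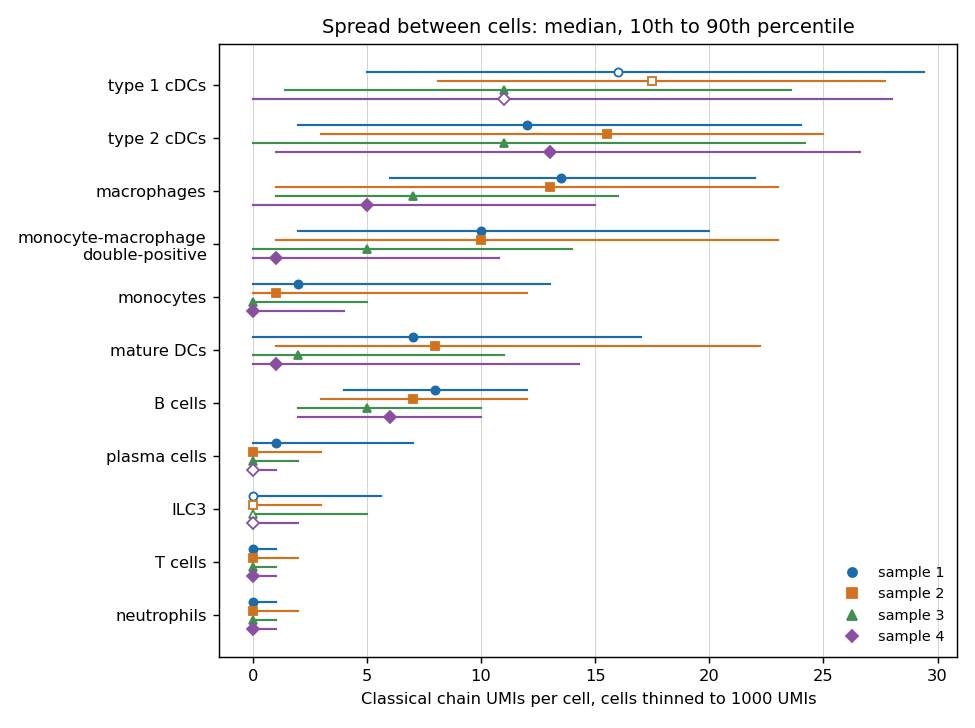
Classical chain UMIs per cell after each cell was thinned to 1000 UMIs, as the median (point) and the 10th to 90th percentile (line) for 11 classes and 4 samples. Open symbols mark fewer than 50 cells. B cells form a band between 2 and 12, whereas monocytes reach down to 0 in every sample and macrophages do so in sample 4.

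The pathway partners were counted whole, 26 of the 27 listed having a row in the tables. Against macrophages, B cells were over 2-fold higher in every sample for Rfx5, Nfyc, H2-Eb2 and Icosl and lower for Ctss, Ctsl, Lgmn, Ifi30 and Cd80, with 16 in neither group and Rfxank under the 5 CPM filter. These 4 and 5 of 25 are near the shares over all genes, 20.3% higher and 15.9% lower, so the counts set the partners apart in neither direction. Ctss, the cathepsin that trims the invariant chain in B cells and DCs, was at 279 to 378 CPM in B cells, 803 to 925 CPM in type 2 conventional DCs and 1878 to 2469 CPM in macrophages. Lgmn, an endosomal protease, was at 138 to 302, 246 to 498 and 1691 to 3211 CPM in the same classes. Rfx5, which binds the X box, was at 11.5 to 16.7 CPM in B cells and 5.29 to 6.93 CPM in macrophages. H2-Eb2, a further class II beta chain gene, was at 99.1 to 154 CPM in B cells, 14.2 to 57.7 CPM in type 2 conventional DCs and 3.10 to 9.34 CPM in macrophages. In plasma cells 12 of 25 partners were over 2-fold below B cells in the 3 samples read and none above, beside 34.7% of all genes below and 5.2% above. They were Nfya, Nfyc, Creb1, H2-Eb2, Ctss, Ifi30, March1, Cd83, Cd86, Cd40, Ifngr1 and Nlrc5. March1, whose product marks surface class II for degradation, was at 1.54 to 22.6 CPM in plasma cells of 4 samples and 105 to 118 CPM in B cells. B2m, the class I light chain, was at 1716 to 2070 CPM in plasma cells and 969 to 1284 CPM in B cells.

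The members other than Ciita split into blocks by their pattern over 50 points, each a class in a sample with at least 50 cells, from 15 classes. On log2(CPM + 1), Pearson's r was at least 0.99 for each pair of classical chains, 0.97 to 0.98 between them and Cd74, and 0.94 to 0.96 between them and H2-DMa or H2-DMb1. H2-DMb2 was most like H2-Ob (0.93) and H2-Oa (0.87) and less like H2-DMb1 (0.68). For Ciita, r was 0.85 with each classical chain and 0.86 with Cd74 and with H2-DMb2. It was 0.77 with H2-Ob and 0.68 with H2-Oa, so Ciita was not set in either block. The genes of most similar pattern outside the list were Gm49662, Ly86, Fgd2, Ifi30 and Gdi2 for the classical chains (r 0.91 to 0.92) and Zfp106, Gm20513, Kynu, Gdi2 and Fgfr1op for Ciita (r 0.82 to 0.89). For H2-DMb2 they were Zfp106, H2-Eb2, Haao, Kynu and Gm20513 (r 0.86 to 0.90), for H2-Oa they were Gpr183, Sp110, Dpp4, Kmo and Btla (r 0.82 to 0.87), and for H2-Ob they were H2-Eb2, Ero1lb, Bcl11a, Mef2c and Gm10552 (r 0.84 to 0.88). Gm20513 is antisense to H2-Eb1 over 2204 bases, and whether the counting used strand is not given in the sources used here, so its reads and those of H2-Eb1 may not be told apart. Points of 1 sample share a library, and Kmo is one of the genes that define type 2 conventional DCs, so these values describe the tables only.

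The cells left out held a large part of the members' transcripts. Cells with markers of several lineages were 19.5 to 29.7% of the kept cells and carried 32.7 to 59.7% of the H2-Aa UMIs and 41.6 to 64.5% of the H2-Ob UMIs of a sample. Their median depth was 11328 to 15605 UMIs, against 4198 to 5438 in B cells and 5268 to 8292 in macrophages. Over all deposited cells, H2-Aa stood at 2197, 1901, 1080 and 833 CPM and Cd74 at 5113, 4848, 1949 and 1577 CPM in samples 1 to 4, both lowest in sample 4. B cells were 22.5%, 18.5%, 2.35% and 4.16% of kept cells and held 3.42 to 20.8% of the H2-Aa UMIs of a sample. A sample's overall level mixes the sizes of the classes with the level in each class, and their parts were not tested.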

How the data were processed

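The tables deposited by the authors hold raw UMI counts for each gene in each cell, filtered to called cells, and their file headers name Cell Ranger 7.0.1. The submitters' processing notes name Cell Ranger 5.0.0, STAR, Seurat and mm10. No cell annotation was used, and filters on genes or doublets before deposit are not given in the sources used here.

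The 10 members and all lists were chosen with earlier results of these data known. Here cells with at least 200 genes and under 20% mitochondrial UMIs were kept. A cell passed a marker list with at least 3 of its genes (2 for type 1 and type 2 conventional DCs and ILC3) and own-list UMIs per 10000 of at least 25% of the median of clear positives. ILC classes allowed at most 1 detected T cell gene. These rules were set in steps, with gate sizes, purity and the members' levels in view. Plasma cells outranked B cells, and a type 1, type 2 or mature DC list outranked the monocyte list where its level was higher. The mature DC list outranked the type 1 and type 2 lists without a comparison of their levels. The plasmacytoid DC list outranked the monocyte list and the other DC lists, also without such a comparison. Cells passing lists of several lineages were left out, which also served as the treatment of doublets, and no doublet caller was run. The monocyte and macrophage lists counted as 1 lineage, so doublets of these classes were not left out. Cells passing the macrophage list and a type 1, type 2 or mature DC list were left out under the same name. So were cells passing more than 1 ILC list. Both kinds stayed out where several-lineage cells were kept. Thinning drew 1000 UMIs from each cell without replacement and left out shallower cells.

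Named genes were all 10 members, pathway partners (27 listed, all those measured being counted and some named), and for 5 patterns the 5 other genes of highest Pearson r with genes under 10 CPM at every point left out. H2-Ea, one of the partners, was not analysed here. A comparison within B cells is not reported here. A gene counted as past 2-fold had a ratio over 2 in 1 direction in every sample read, among genes with a mean of at least 5 CPM in the contrast. With samples in no group, no test was run across samples, and 4 samples could not go below an exact two-sided sign-flip p of 0.125. The gates and the ratios with their intervals were tested on simulated data, and the simulated ratios were recovered. Simulated cells were drawn from the summed profiles of classes already gated in sample 1, without doublets or free RNA. Simulated ratios carried counting error only. The simulation therefore cannot show how pure the gates are in the real cells. Simulated cells that lost their class were mostly left out, most often macrophages and type 2 conventional DCs, and some of the latter fell in other DC classes. Gene positions came from GENCODE M21, in which 32158 of 32285 identifiers were found. Tools were Python 3.11.15, numpy 2.4.6, scipy 1.17.1, pandas 2.3.3 and matplotlib 3.10.9.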

Additional observations from a re-analysis of the deposited data

How the results depend on the processing

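Each of 8 class ratios was recomputed with stricter cell filters (500 genes, 10% mitochondrial) and gates, several-lineage cells kept, highest-scoring classes, means over cells, other totals, thinning, the top 10% by UMIs left out, and single samples left out. The looser gate and the limit of 20 cells were chosen after seeing the data. Highest-scoring assignment, which also takes in several-lineage and unclassed cells, moved macrophages to monocytes from 4.14 to 5.22, turned type 2 conventional DCs to macrophages from 1.30 to 0.884, and moved Ciita in plasma to B cells from 0.107 to 0.237 and H2-O in macrophages to B cells from 0.0391 to 0.0821. Keeping several-lineage cells moved the last to 0.0854. Thinning turned Ciita in mature to type 2 conventional DCs from 0.732 to 1.11. The looser gate moved ILC3 to T cells from 2.76 to 5.43. The cause was not tested. Of 104 alternative values, 97 moved by less than the spread between samples and kept their side of 1. Another 5 moved by more, and 2 turned to the other side of 1. The spread used is narrower than the range from the lowest to the highest sample. The medians without single samples are among the 97. They lie within the range of the same samples by construction, so their part of the count tests nothing. Stricter gates left 2 samples for both DC ratios and 1 for ILC3. Without single samples, medians were 0.567 to 0.695 for B cells to macrophages, 3.38 to 4.90 for macrophages to monocytes, 1.17 to 1.42 for type 2 conventional DCs to macrophages, 0.0639 to 0.181 for plasma Ciita, 0.660 to 0.803 for mature DC Ciita, 2.59 to 2.92 for ILC3, and 0.0385 to 0.0397 (H2-O) and 0.565 to 0.779 (H2-M) for macrophages to B cells. Class ratios pair the classes within a sample, whereas no comparison between groups of samples was possible because the labels put no sample in a group. Under 50 cells, type 1 conventional DCs and ILC3 rest on few cells, and Ciita on single UMIs in many classes.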
